A study of Mus musculus with 8 samples.

Results

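The 40 genes described here encode proteins of the nuclear envelope and the nuclear pore, and they were taken as a named list of 21 lamina and membrane genes and 19 pore genes out of 21938 protein-coding genes of the mouse annotation. The list was chosen with earlier results of these data known. Each gene was examined for binding sites of WFS1 (wolframin), a glycoprotein of the endoplasmic reticulum membrane, which is continuous with the nuclear membranes, as mapped by chromatin immunoprecipitation and sequencing (ChIP-seq). The cells were proliferating C2C12 myoblasts, an established mouse muscle precursor line that fuses into myotubes when growth factors are withdrawn, and the libraries used here came from wildtype cells. The 2 peak lists were made with an antibody to WFS1 after 30 and after 36 sonication cycles, and both came from 1 immunoprecipitation, with the second library taken from a part of the chromatin sheared for 6 further cycles. The series also holds 6 libraries that were not used here, namely the inputs of wildtype cells and the WFS1 ChIP and inputs of cells with WFS1 knockout that express WFS1-FlagTag, each at both sonication settings. A peak list holds no expression values, so the identity of the cells could not be checked against marker genes.

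The lists held 18283 peaks after 30 cycles and 12674 after 36 cycles, and joining overlapping peaks gave 22292 combined peaks. Of these, 35.4% came from both lists, 45.5% from the 30-cycle list alone and 19.1% from the 36-cycle list alone. The files give the position of each peak and neither height nor read number, so a peak is present or absent, and the sequencing depth is unknown. There was 1 library per condition and no replicate of the immunoprecipitation, so no test was possible between conditions, and genes are not replicates of each other. Shares of genes are given with 95% Wilson intervals, which cover counting error only, beside the share among all protein-coding genes and the mean share among protein-coding genes of the same length, using 10 length classes.

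The nucleus is bounded by an inner and an outer membrane that meet at the pores. Beneath the inner membrane lies the lamina, a meshwork of A-type and B-type lamins, to which inner membrane proteins with a LEM domain, the lamin B receptor and the chromatin-binding protein BAF attach chromatin. SUN proteins of the inner membrane pair with nesprins of the outer membrane in the LINC complex, which couples the nucleus to the cytoskeleton and anchors the many nuclei of a muscle fibre. The pore is built of nucleoporins in stacked rings and carries transport between nucleus and cytoplasm. Mutations in lamin A/C and in several of its partners cause muscular dystrophies and cardiomyopathies.

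WFS1 peaks lay at or near most of these genes. Within 1 kb of the start site, defined as the 5′ end of the gene, 15 of 40 genes (37.5%, interval 24.2 to 53%) had a combined peak, against 13.2% of all protein-coding genes and 15.1% of those of the same length. In the gene beyond 1 kb of the start, 18 of 40 (45%, 30.7 to 60.2%) had a peak, against 18.3% of all and 23.6% of length-matched genes. Within 50 kb of the start, 31 of 40 (77.5%, 62.5 to 87.7%) had a peak, against 54.0% of all and 56.8% of length-matched genes. The members' shares were 2.48, 1.91 and 1.36 times those of length-matched genes in that order. The 40 genes had 130 distinct peaks by these 3 criteria, 103 at lamina and membrane genes and 27 at pore genes.

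In both lists the members' shares were above those of all protein-coding genes, by different margins. In the 30-cycle list, 11 genes had a start-site peak (27.5%, all protein-coding genes 10.9%), 17 had one in the gene (42.5%, all 16.5%) and 30 had one within 50 kb (75%, all 50.2%). In the 36-cycle list, 11 genes had a start-site peak (27.5%, all 6.02%), 9 had one in the gene (22.5%, all 12.1%) and 25 had one within 50 kb (62.5%, all 36.3%). In the same order, length-matched shares were 12.4%, 21.2% and 52.7% in the 30-cycle list. In the 36-cycle list they were 6.68%, 15.1% and 37.8%. The interval of the members' in-gene share in the 36-cycle list, 12.3 to 37.5%, covered its length-matched share. The members' start-site share was thus equal in both lists, whereas the share of all protein-coding genes was lower in the shorter 36-cycle list. The 16 distinct start-site peaks of members came from both lists in 7 cases, from the 30-cycle list alone in 4 and from the 36-cycle list alone in 5. Among the 3085 start-site peaks of protein-coding genes, 23.3% came from both lists, 55.6% from the 30-cycle list alone and 21.1% from the 36-cycle list alone. Over all 130 member peaks the split was 39.2%, 41.5% and 19.2%, close to that of all combined peaks.

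**Figure D1:**
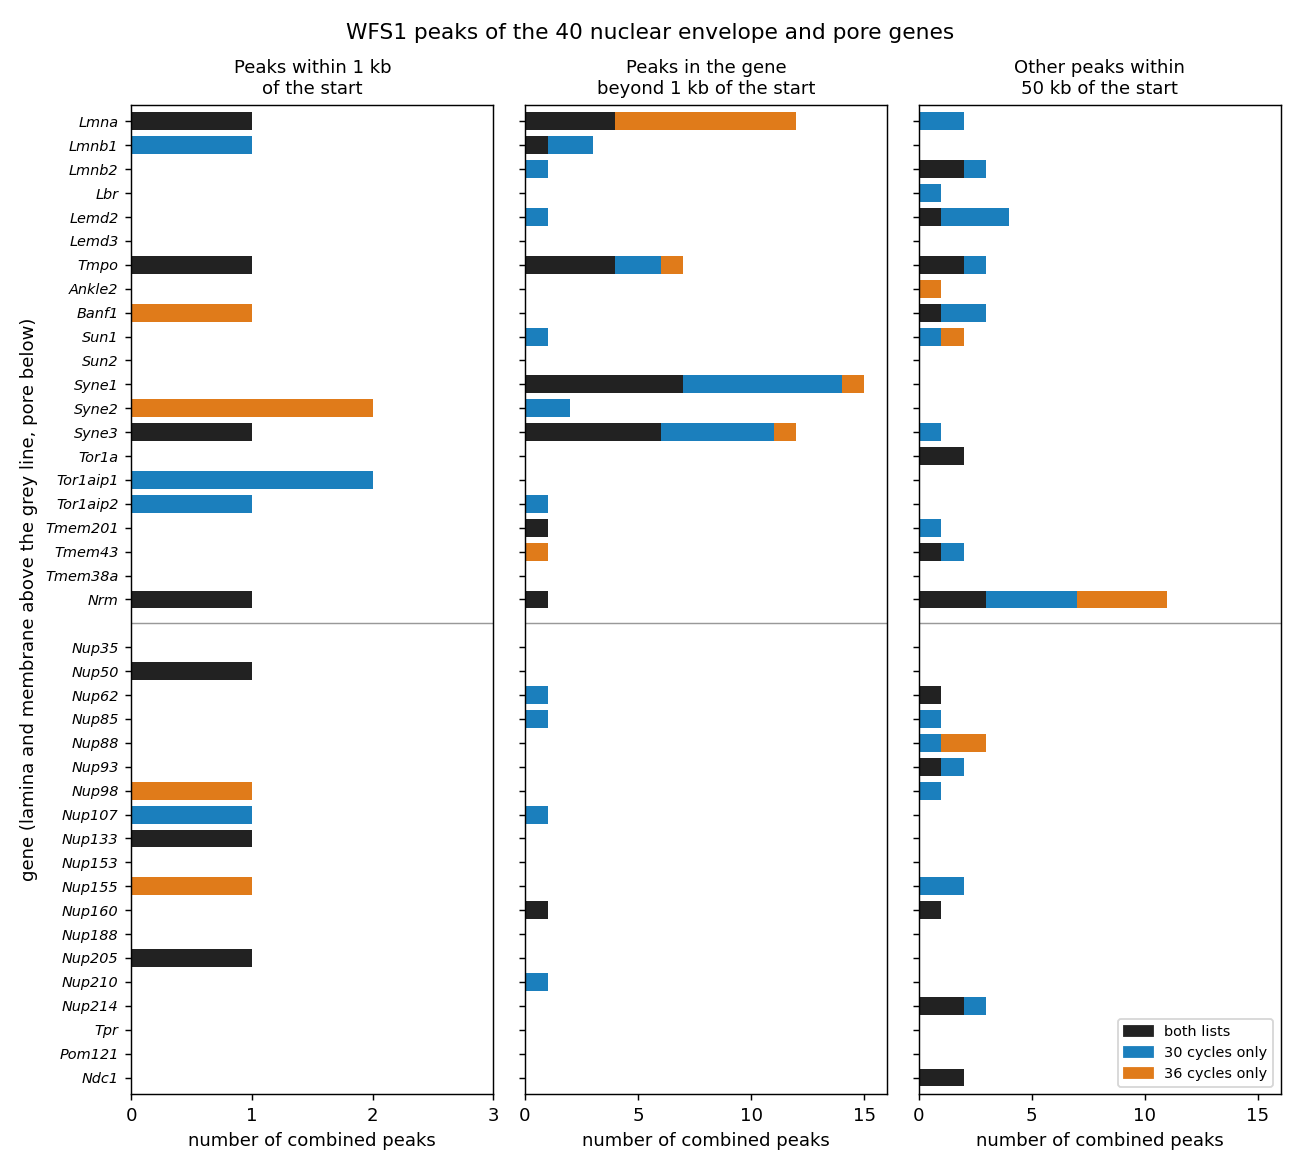
Number of combined WFS1 peaks (horizontal axis) for each of the 40 genes (vertical axis), at the start site, in the gene beyond 1 kb of the start, and elsewhere within 50 kb of the start; colours show which list called the peak. Syne1 (15), Lmna (12), Syne3 (12) and Tmpo (7) hold most of the peaks inside genes, while no pore gene has more than 1 there.

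Most members have CpG-rich promoters, the kind found at widely expressed genes. The observed over expected CpG ratio in 500 bp around the start exceeded 0.6 in 34 of 40 members (85%), compared with 49% of protein-coding genes. A start-site peak was present at 21.5% of all protein-coding genes above this cut and at 5.23% of those at or below it. When length classes were combined with this CpG class, the matched share for start-site peaks was 19.6% and the members' ratio 1.92, and for peaks within 50 kb they were 62.6% and 1.24 (interval 0.999 to 1.4). The part of promoter composition in the members' share was not tested beyond this value. Members had a median of 1 other protein-coding start within 50 kb, against 2 for all protein-coding genes.

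Each of the 3 lamin genes had peaks in the gene, and Lmna had by far the most. Lmna, which encodes lamins A and C, lies at chr3:88480147-88509956 on the minus strand and spans 29.8 kb. A peak of 2142 bp, called in both lists and the widest of all member peaks, ran from upstream of the start into the annotated UTR of the first exon. A further 12 peaks lay in the gene from 6.24 to 21.1 kb past the start, and 2 more, in the 30-cycle list alone, lay 2.97 and 3.88 kb upstream. Of the 13 peaks that overlapped the gene, 5 came from both lists, 0 from the 30-cycle list alone and 8 from the 36-cycle list alone. Counted before joining, the 30-cycle list had 6 peaks in the gene and the 36-cycle list 12. They covered 22.2% of the gene. This number of peaks ranked 1 among 2192 protein-coding genes of its length class, where the median was 0, and 36 among all 21938. Joining peaks no more than 1 kb apart left 5 groups in the gene.

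Peaks in Lmna lay mostly in introns and partly at inner transcript starts. A peak of 1008 bp from both lists covered the annotated transcript start 16.6 kb into the gene together with a coding exon and a UTR, and the next peak, 1685 bp wide and intronic, began 1.2 kb further on. The group of annotated starts at 6.62 kb had a peak of 240 bp within 0.139 kb, in the 36-cycle list alone. The start-site peak and the widest intronic peak of Lmna are given as 200 bp from their centres, with a further intronic peak of 513 bp at 9.38 kb chosen after its values were seen because it holds an E-box and an AP-1 type site side by side. All sequences shown here are the forward strand of GRCm38 unless stated. In the start-site windows capitals mark CG dinucleotides. In the others they mark CAGCTG (an E-box, the class of site bound by MyoD), TGANTCA and AACCNCA on either strand. The last 2 are loose forms of the AP-1 type and the RUNX type, with any base allowed at N. A match to them need not be a site of these factors, and binding was not tested.
Lmna start site, chr3:88510658-88510857: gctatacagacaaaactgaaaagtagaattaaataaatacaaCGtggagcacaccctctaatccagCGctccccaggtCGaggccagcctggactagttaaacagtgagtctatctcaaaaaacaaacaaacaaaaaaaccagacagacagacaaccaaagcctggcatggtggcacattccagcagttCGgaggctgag
Lmna intron at 18.7 kb, chr3:88491175-88491374: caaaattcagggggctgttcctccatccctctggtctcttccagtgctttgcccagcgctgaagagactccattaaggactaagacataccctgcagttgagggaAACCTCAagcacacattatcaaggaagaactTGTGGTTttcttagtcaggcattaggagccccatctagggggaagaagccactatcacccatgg
Lmna intron at 9.63 kb, chr3:88500221-88500420: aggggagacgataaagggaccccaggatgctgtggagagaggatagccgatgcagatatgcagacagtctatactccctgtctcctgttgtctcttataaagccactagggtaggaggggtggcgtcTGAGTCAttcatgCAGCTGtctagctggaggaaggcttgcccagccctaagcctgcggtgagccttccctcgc
The start-site peak was centred at -0.802 kb from the start, and its window had 4 CG dinucleotides in 200 bp and a GC content of 45.5%, and 36.1% of the whole peak is masked as repeats in the RefSeq genome. The window at 18.7 kb held 2 AACCNCA matches and neither of the other motifs, and the window at 9.63 kb held 1 CAGCTG and 1 TGANTCA match.

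The genes of the B-type lamins had fewer peaks. Lmnb1 (45.6 kb) had 4, namely a 452 bp start-site peak in the 30-cycle list alone that ended 0.052 kb upstream of the start, a 460 bp intronic peak from both lists at 16.1 kb, and a pair of intronic peaks from the 30-cycle list alone at 1.24 and 29.5 kb. Lmnb2 (17 kb) had no start-site peak, 1 intronic peak of 597 bp at 3.62 kb in the 30-cycle list alone, and 3 peaks 22.2 to 42.9 kb upstream. Inside the B-type lamin genes the 36-cycle list thus had 1 peak, whereas it had 12 inside Lmna.

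Of the 6 genes for LEM-domain proteins, the lamin B receptor and BAF, Tmpo stood apart. Tmpo encodes the LAP2 proteins, of which some isoforms span the inner membrane and one is soluble in the nucleus. It spans 33.7 kb at chr10:91147571-91181315 on the minus strand. A 1031 bp peak from both lists ended 0.043 kb upstream of the start, and 7 peaks lay in the gene from 10.7 to 24.6 kb. Of these 7, 4 came from both lists, 2 from the 30-cycle list alone and 1 from the 36-cycle list alone. They covered 14.4% of the gene and ranked 2 in the same length class of 2192 genes as Lmna. A further 3 peaks lay 1.34 to 6.45 kb upstream, so Tmpo had 11 peaks within 50 kb. A peak of 401 bp covered an annotated inner transcript start at 10.9 kb, and the widest in the gene, of 1115 bp at 18.5 kb, overlapped a coding exon and a UTR. The centre of that peak, outside any annotated UTR, held 1 CAGCTG and 1 AACCNCA match.
Tmpo at 19 kb, chr10:91162194-91162393: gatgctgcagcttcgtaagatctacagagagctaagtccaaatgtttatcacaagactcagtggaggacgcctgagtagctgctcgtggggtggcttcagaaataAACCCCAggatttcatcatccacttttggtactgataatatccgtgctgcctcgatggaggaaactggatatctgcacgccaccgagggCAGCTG

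The other genes of this group had 0 or 1 peak at the start or in the gene. Banf1, a gene of 2.53 kb that encodes BAF, had a 379 bp peak 0.375 kb upstream in the 36-cycle list alone, which also lay in the start-site window of Eif1ad, and 51.2% of this peak is masked as repeats. Its 3 other peaks within 50 kb included an 840 bp peak at the start of Sart1. Lemd2 had a 258 bp intronic peak at 2.12 kb in the 30-cycle list alone, of which 64.7% is masked, and 4 peaks outside the gene. Lbr had 1 peak, 17.5 kb upstream, in the 30-cycle list alone, and Ankle2, whose product recruits enzymes that act on BAF as the envelope re-forms after mitosis, had 1 peak, 28.9 kb upstream, in the 36-cycle list alone. Lemd3, which encodes the SMAD-binding protein MAN1, had none, and the nearest peak to its start was 169 kb away.

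The LINC complex genes ranged from no peak to the most peaks inside the gene of any member. Syne3 (79.9 kb, chr12:104929933-105009809, minus strand) encodes nesprin-3, which binds the cytolinker plectin. It had a 443 bp start-site peak from both lists 0.638 kb upstream and 12 peaks in the gene, all intronic, from 4.56 to 39.9 kb. Of the 12, 6 came from both lists, 5 from the 30-cycle list alone and 1 from the 36-cycle list alone, and they covered 9.81% of the gene and ranked 4 among 2194 genes of its length class. The widest, of 1725 bp at 29.9 kb, had none of the 3 motifs in its central window. The 777 bp peak at 25.8 kb, chosen after its values were seen, held 1 CAGCTG and 2 TGANTCA matches.
Syne3 intron at 30.8 kb, chr12:104978956-104979155: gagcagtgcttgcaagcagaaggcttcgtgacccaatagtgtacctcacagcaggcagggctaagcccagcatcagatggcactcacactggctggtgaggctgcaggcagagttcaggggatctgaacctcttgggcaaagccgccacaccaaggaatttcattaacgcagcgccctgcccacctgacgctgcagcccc
Syne3 intron at 26.2 kb, chr12:104983522-104983721: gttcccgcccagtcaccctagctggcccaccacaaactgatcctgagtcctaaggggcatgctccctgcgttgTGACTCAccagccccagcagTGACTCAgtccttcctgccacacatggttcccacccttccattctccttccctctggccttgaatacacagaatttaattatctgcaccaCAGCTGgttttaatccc

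Syne1, which encodes the giant nesprin-1 that anchors nuclei in muscle, had 15 peaks in its 531 kb and none within 50 kb of its 5′ end. It was the only member with peaks in the gene and none within 50 kb. The nearest peak was 246 kb past the start, and the 15 lay between 246 and 495 kb, which is the 3′ part of the gene. Of these, 7 came from both lists, 7 from the 30-cycle list alone and 1 from the 36-cycle list alone. Long genes often hold peaks, and in its length class 58.4% of genes had one in the gene, with a median of 1, yet the 15 peaks of Syne1 ranked 23 among 2194. Annotated inner transcript starts lay under or next to peaks from both lists, at 357 kb (541 bp peak over the start, coding exon and UTR) and at 409 kb (798 bp peak, 0.247 kb from the start). The TGANTCA motif was in the central 200 bp of 6 of the 15 peaks (40%, interval 19.8 to 64.3%), compared with 23.4% of all combined peaks, a share within that interval. The same motif was in 3 of 13 peaks in Lmna, 1 of 7 in Tmpo and 1 of 12 in Syne3. The window of the peak at the 409 kb start, chosen after its values were seen, held none of the 3 motifs.
Syne1 at 410 kb, chr10:5141783-5141982: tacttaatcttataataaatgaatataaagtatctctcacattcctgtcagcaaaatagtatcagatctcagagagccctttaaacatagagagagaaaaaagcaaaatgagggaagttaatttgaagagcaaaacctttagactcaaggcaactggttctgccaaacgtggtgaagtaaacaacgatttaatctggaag

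The remaining LINC genes had few peaks. Syne2 (nesprin-2, 293 kb) had a pair of start-site peaks in the 36-cycle list alone, 0.431 and 0.8 kb past the start, and 2 intronic peaks in the 30-cycle list alone at 9.08 and 267 kb, so no peak of Syne2 was called in both lists. Sun1 had a 242 bp intronic peak at 19.2 kb in the 30-cycle list alone, of which 64.5% is masked as repeats, and 2 upstream peaks at 3.36 and 10 kb. Sun2 had none, with the nearest peak 55.2 kb from its start.

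**Figure D2:**
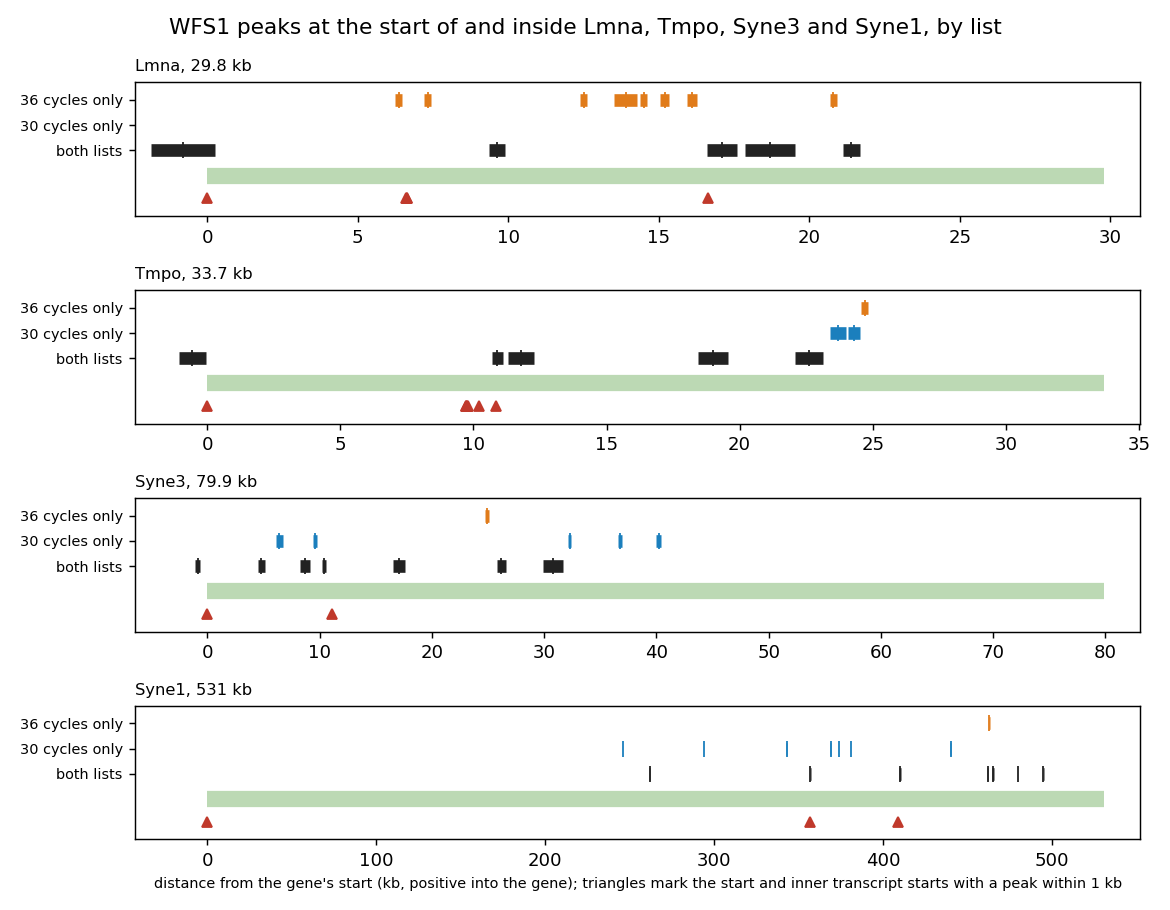
Combined WFS1 peaks at the start of and inside Lmna, Tmpo, Syne3 and Syne1, placed by distance from the gene's start in kb (horizontal axis, a separate scale for each gene) and in a lane for each list; green bars are the genes and triangles mark the start and inner transcript starts with a peak within 1 kb. Lmna has 8 peaks of the 36-cycle list alone and 0 of the 30-cycle list alone, and the peaks of Syne1 begin 246 kb into the gene.

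The torsin system is represented by Tor1a, the AAA+ ATPase torsinA mutated in a dystonia, and by its membrane-bound activators LAP1 (Tor1aip1) and LULL1 (Tor1aip2). Tor1a had no peak at its start or in its 7.31 kb, and 2 peaks from both lists 47.3 and 49.2 kb past the start, outside the gene. Tor1aip1 and Tor1aip2 are neighbours in head-to-head orientation with overlapping 5′ ends, and they shared both of their peaks, of 436 and 242 bp, in the 30-cycle list alone. The 436 bp peak covered the start of Tor1aip1 and lay 0.745 kb into Tor1aip2. The 242 bp peak lay 0.379 kb upstream of Tor1aip1 and 1.46 kb into an intron of Tor1aip2, so the in-gene count of Tor1aip2 rests on a promoter peak of its neighbour. With this pair counted once, 14 members had a start-site peak.

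Among the other inner membrane proteins, Nrm (nurim) had the most peaks around it. It had 13 peaks within 50 kb, a number that 43 protein-coding genes exceeded, and 8 other protein-coding genes start in the same window. A 447 bp peak from both lists covered its start and an 823 bp peak from both lists its 3′ end, where it also reached the start-site window of Ppp1r18. Of its 11 other peaks, 7 lay 4.79 to 9.6 kb past the start, beyond the 3′ end of the gene, and 4 lay 24 to 47.2 kb upstream, 1 of them in the shared start-site window of Flot1 and Ier3. Tmem201 (SAMP1) had a 270 bp UTR peak from both lists at 11.9 kb, and Tmem43 (LUMA) had a 355 bp UTR peak at its 3′ end in the 36-cycle list alone, next to a 566 bp peak from both lists just outside. Tmem38a, a cation channel of the sarcoplasmic reticulum and nuclear envelope, had none, and its nearest peak was 96.3 kb away.

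Of the 19 pore genes, 6 had a start-site peak and 5 had a peak in the gene. The Y complex, the outer ring scaffold of the pore, is represented by 4 genes. Nup133 had a 357 bp peak from both lists over its start, and Nup107 had a 452 bp start-site peak 0.3 kb into the gene and a 272 bp intronic peak at 7.74 kb, both in the 30-cycle list alone. Nup160 had no peak within 1 kb of its 5′ end but a 432 bp peak from both lists 1.76 kb into the gene over a coding exon and a UTR, and Nup85 had a 396 bp peak over a coding exon at 18.9 kb, near its 3′ end, in the 30-cycle list alone. The Nup160 peak was the only in-gene peak of a pore gene called in both lists.

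Among the inner ring genes, Nup205 had a 421 bp peak from both lists that reached its start by a single base, and Nup155 had a 217 bp peak 0.131 kb past its start in the 36-cycle list alone. Nup155 had 2 upstream peaks as well, 1 of them at the start of Wdr70. Nup93 had only a pair of peaks, 35.2 and 40.6 kb upstream, at the starts of the metallothionein genes Mt1 and Mt2. Nup35 and Nup188 had none, with the nearest peaks 301 and 76.5 kb away. No inner ring gene had a peak in the gene beyond 1 kb.

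The nuclear basket, which faces the chromatin, is represented by Nup50, Nup153 and Tpr. Nup50 had a 414 bp peak from both lists 0.238 kb upstream of its start, and this was its only peak within 50 kb. Nup153 and Tpr had none, with the nearest peaks 112 and 81.5 kb from their starts. Of the central, cytoplasmic and mobile nucleoporins, Nup98 had a 252 bp start-site peak 0.163 kb into the gene in the 36-cycle list alone, shared with the start of Pgap2, and Nup62 had a 478 bp intronic peak at 2.68 kb in the 30-cycle list alone, 0.33 kb from an inner transcript start. Nup88 had 3 peaks and Nup214 had 3, all outside the genes; those of Nup88 lay 33.7 and 1.31 kb upstream, the farther one at the start of Dhx33, and 38.1 kb past the start. Of the transmembrane nucleoporins, Nup210 had a 344 bp peak over a coding exon at 40.2 kb in the 30-cycle list alone, Ndc1 had 2 peaks from both lists 2.54 and 3.02 kb upstream, and Pom121 had none within 128 kb.

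The pore start-site peaks called in both lists differed in base composition. Those of Nup50 and Nup205 are shown as 200 bp from their centres, and for Nup133, chosen after its values were seen, the 200 bp upstream of the start are shown on the minus strand, with 158 bp of them in the peak.
Nup50 start site, chr15:84922867-84923066: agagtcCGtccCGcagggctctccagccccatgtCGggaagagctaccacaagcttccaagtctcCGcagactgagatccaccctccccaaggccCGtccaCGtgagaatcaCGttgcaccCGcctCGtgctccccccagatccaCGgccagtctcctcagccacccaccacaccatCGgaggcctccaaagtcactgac
Nup205 start site, chr6:35177111-35177310: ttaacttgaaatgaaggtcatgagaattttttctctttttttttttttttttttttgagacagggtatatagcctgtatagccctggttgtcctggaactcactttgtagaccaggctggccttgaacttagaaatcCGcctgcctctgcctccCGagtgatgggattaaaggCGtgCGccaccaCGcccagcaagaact
Nup133 upstream of the start, chr8:123949266-123949465: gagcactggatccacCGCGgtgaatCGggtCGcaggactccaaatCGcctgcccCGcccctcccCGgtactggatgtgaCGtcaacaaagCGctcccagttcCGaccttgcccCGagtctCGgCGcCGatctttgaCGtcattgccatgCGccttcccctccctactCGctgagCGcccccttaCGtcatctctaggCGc
The Nup133 window held 20 CG dinucleotides at 64% GC and the Nup50 window 11 at 63.5% GC, whereas the Nup205 window held 5 at 44.5% GC. In the RefSeq genome 46.8% of the Nup205 peak is masked as repeats, against 5.31% of the Nup50 peak and 0% of the Nup133 peak. None of the 3 windows held any of the 3 motifs.

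**Figure D3:**
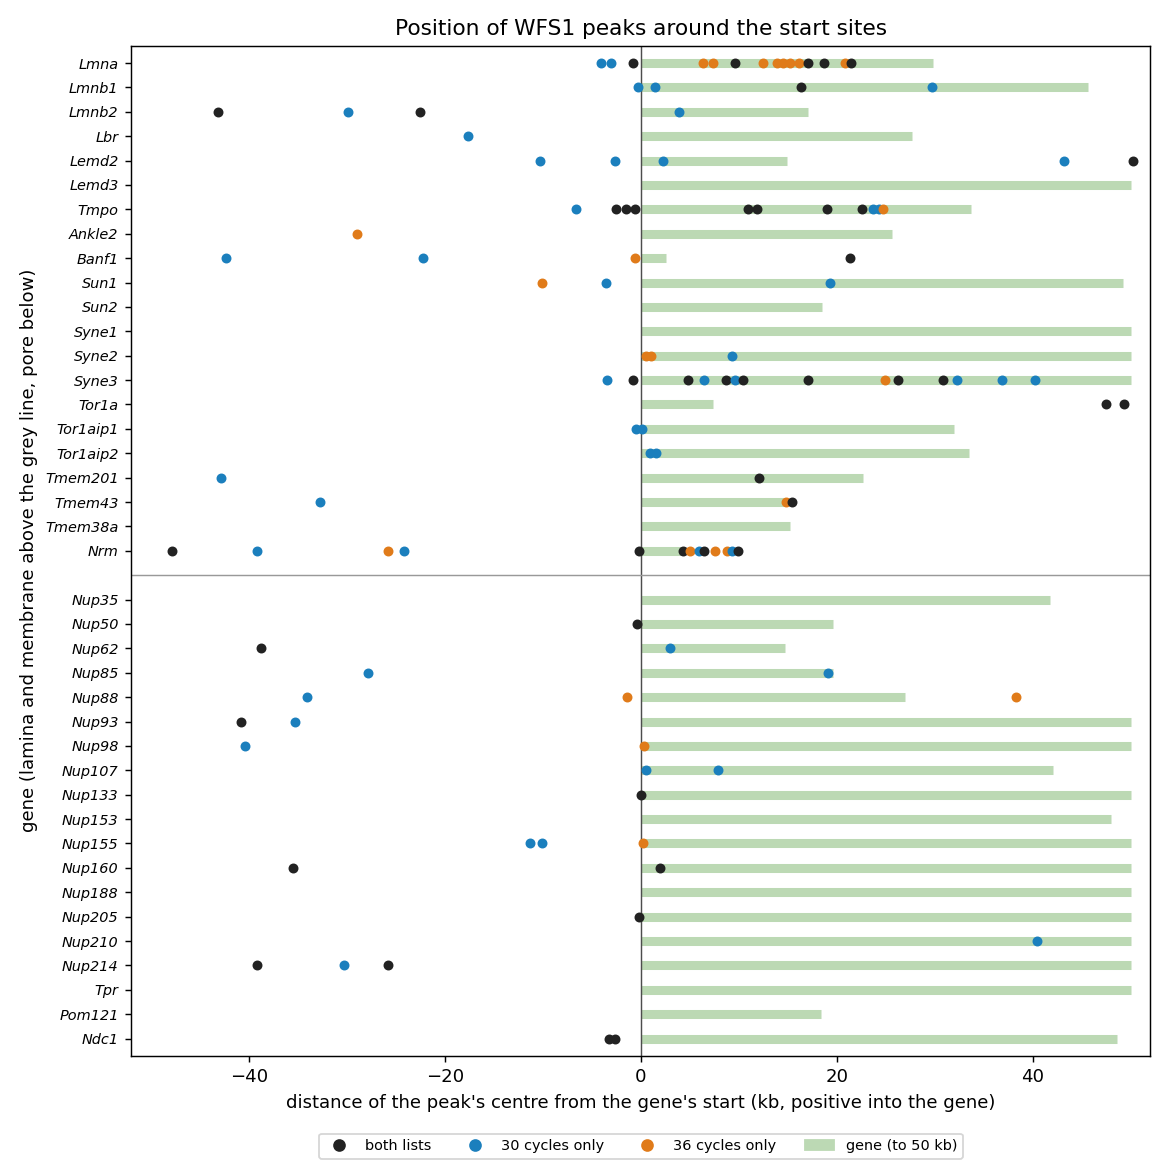
Position of each combined WFS1 peak within 50 kb of the start of the 40 genes, as the distance of the peak's centre from the start in kb (horizontal axis, positive into the gene); colours show the list and green bars the gene up to 50 kb. Peaks of Lmna, Tmpo and Syne3 lie along the gene, whereas the pore genes carry at most 3 peaks each.

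When both classes were set side by side, their shares lay farthest apart inside the genes. A start-site peak was present at 9 of 21 lamina and membrane genes (42.9%, 24.5 to 63.5%) and at 6 of 19 pore genes (31.6%, 15.4 to 54%), with length-matched shares of 14.3% and 16%. A peak in the gene was present in 13 of 21 (61.9%, 40.9 to 79.2%) and in 5 of 19 (26.3%, 11.8 to 48.8%), with length-matched shares of 20.5% and 26.9%. The lamina and membrane genes thus stood at 3.02 times their length-matched share, whereas the pore genes were at their own. The excess holds for the genes listed, which were chosen with earlier results of these data known. Among 19 other envelope genes, 1 had a peak in the gene, which is 0.416 times their length-matched share. A peak within 50 kb was present at 17 of 21 (81%, 60 to 92.3%) and at 14 of 19 (73.7%, 51.2 to 88.2%), with length-matched shares of 56% and 57.7%. The intervals of both classes overlapped for each of the 3 criteria. The difference in the gene was 35.6 percentage points with an interval of 4.81 to 58.2, whereas the intervals of the differences at the start and within 50 kb included 0. These intervals treat genes as independent draws, and that of the in-gene difference included 0 with peaks of at least the median width, with all peaks overlapping the gene and with at least 50% of the peak required in the gene. The pore genes were the longer class, with a median of 52 kb against 27.7 kb, and the length-matched share in the gene was the higher for them. The only in-gene peaks of Tor1aip2 and Nrm lay in the start-site window of a neighbouring gene. No in-gene peak of a pore gene did so, and the in-gene difference without Tor1aip2 and Nrm was not computed. In the 36-cycle list, 8 of 21 lamina and membrane genes (38.1%) and 1 of 19 pore genes (5.26%) had a peak in the gene, with length-matched shares of 13.3% and 17.1%. Moving the transmembrane nucleoporins Pom121, Ndc1 and Nup210 to the membrane class gave 14 of 24 against 4 of 16 genes with an in-gene peak, and brought the start-site shares level, at 9 of 24 and 6 of 16.

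**Figure D4:**
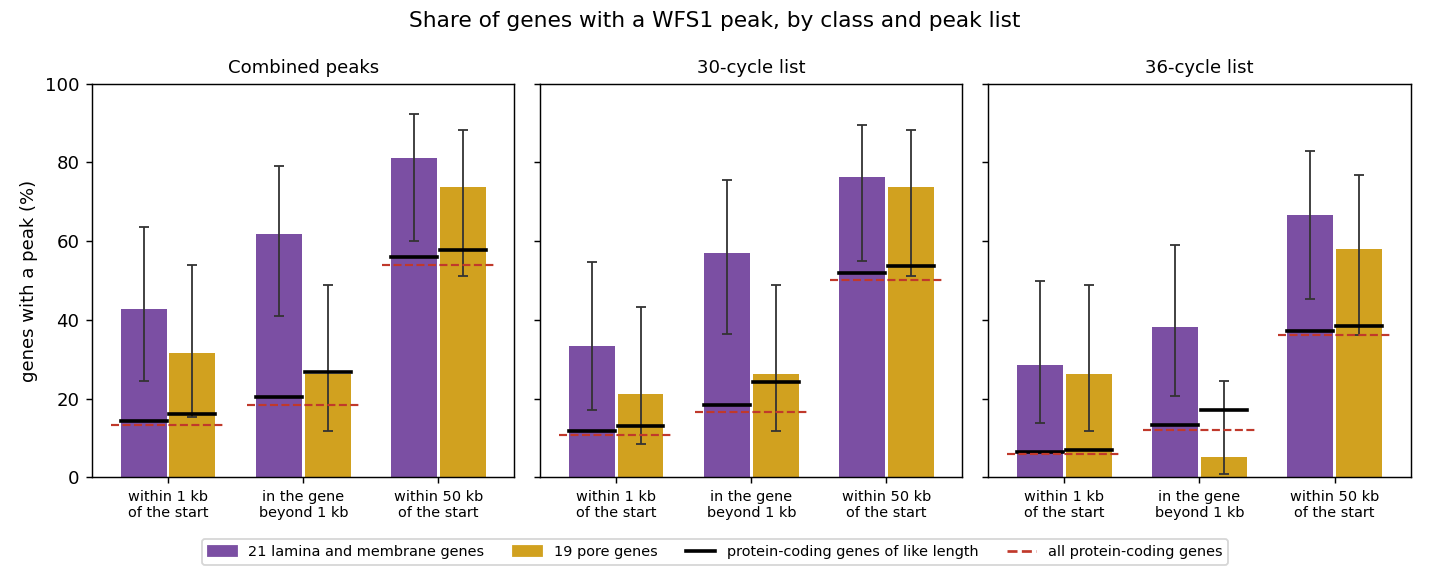
Percent of the 21 lamina and membrane genes and of the 19 pore genes with a WFS1 peak at the start, in the gene and within 50 kb (vertical axis), for combined peaks and each list; error bars are 95% Wilson intervals, black lines the length-matched protein-coding share and dashed red lines the share of all protein-coding genes. In the gene, the lamina and membrane genes stand at 61.9% and the pore genes at 26.3%, the latter on their length-matched line of 26.9%.

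Most peaks inside the lamina and membrane genes lay in 4 of them. Peaks overlapped lamina and membrane genes 64 times in 1.35 Mb of gene (47.3 per Mb) and pore genes 10 times in 1 Mb (9.95 per Mb), against 11.2 per Mb over all protein-coding genes. Lmna, Syne1, Syne3 and Tmpo accounted for 47 of the 64 (73.4%). Without these 4, chosen after their values were seen, the lamina and membrane genes had 17 overlaps at 25 per Mb. The peak shared by Tor1aip1 and Tor1aip2 was counted for each of them. Of the 17 genes left, 9 had a peak in the gene. This is 26.6 percentage points more than the pore genes, with an interval that included 0 (-4.81 to 52.1). Without Syne1, the longest member, the density was 59.6 per Mb. Of the 64 overlaps, 43 (67.2%) were intronic, compared with 3 of 10 (30%) in pore genes, where 7 touched an exon. These overlaps include peaks at the start site, which made up unlike parts of each class. Beyond 1 kb of the start lay 58 of the 64 but only 5 of the 10. The intronic share over all protein-coding genes is not given here.

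Some of the peaks around the members lay at a neighbouring promoter. Of the peaks within 50 kb that lay neither at the start nor in a member, 5 of 16 (31.2%) around pore genes and 3 of 36 (8.33%) around lamina and membrane genes were in the 1 kb start-site window of another protein-coding gene. For the pore genes these were Sumo2, Dhx33, Mt1, Mt2 and Wdr70, near Nup85, Nup88, Nup93 (both metallothionein genes) and Nup155. A further count left out every peak in another gene's start-site window, including peaks at the start of or in a member. It kept 29 of 40 members with a peak within 50 kb (72.5%). Counted the same way, 47.4% of all and 50.6% of length-matched protein-coding genes had one. The share of flanking peaks at a neighbouring promoter is not given here for other genes.

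A total of 8 members had no peak at the start, in the gene or within 50 kb, namely Lemd3, Sun2 and Tmem38a of the lamina and membrane genes and Nup35, Nup153, Nup188, Tpr and Pom121 of the pore genes. Absence from a list says only that no peak was called there at this unknown depth. These genes sit 55.2 kb (Sun2) to 301 kb (Nup35) from the nearest peak. The share of all protein-coding genes without a peak by the 3 criteria together is not given here. By the 50 kb criterion alone, by which Syne1 also lacks a peak, members lacked one less often than protein-coding genes at large. A peak within 50 kb was present at 77.5% of members, at 54.0% of all protein-coding genes and at 56.8% of length-matched ones.

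Member peaks were also described by width, motif and repeat content. The median width was 398.5 bp, compared with 376 bp for all combined peaks, and 460 bp for the 49 peaks at the start or in the gene of Lmna, Syne1, Syne3 and Tmpo. The E-box CAGCTG was in the central 200 bp of 15.4% of the 130 member peaks (all peaks 18%), TGANTCA in 16.2% (all 23.4%) and AACCNCA in 17.7% (all 18.6%). Each was searched on both strands, and neighbouring matches can share the CA or TG at their ends. Of the 16 start-site peaks of members, 0 held TGANTCA (upper bound 19.4%), whereas 6.03% of protein-coding start-site peaks held it, so this absence is within counting error. By class, CAGCTG was in 7 of 27 peaks of pore genes (25.9%, 13.2 to 44.7%) and in 13 of 103 of lamina and membrane genes (12.6%, 7.53 to 20.4%), with overlapping intervals. More than 50% of the peak was masked as repeats in 11 of the 130 member peaks (8.46%), compared with 10.4% of all combined peaks.

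Other genes of the same structures were counted by the same criteria. Of 19 other envelope genes, which include Emd (emerin), the torsins Tor1b, Tor2a and Tor3a, testis SUN proteins and the lamin-processing enzymes Zmpste24, Icmt and Rce1, 1 had a start-site peak (Vrk1, a kinase of BAF) and 1 a peak in the gene (Tor3a), each 5.26% and in the 30-cycle list alone, below the length-matched shares of 12.8% and 12.7%, while 15 had a peak within 50 kb (78.9%, length-matched 54.9%). Wfs1 itself was among these, with 4 peaks within 50 kb, the nearest 10.8 kb away, and none at the start or in the gene. Of 13 other pore genes, 3 had a start-site peak (23.1%, length-matched 15.2%), namely Seh1l of the Y complex, Aaas (ALADIN) and Ranbp2, the large cytoplasmic filament protein, 0 had one in the gene (length-matched 19.8%) and 6 had one within 50 kb (46.2%, length-matched 58.3%). Of 15 transport factors, 7 had a start-site peak (46.7%, 24.8 to 69.9%, length-matched 15%). These were Kpna2 (importin-α), Tnpo1 (transportin), the exportins Xpo1 and Cse1l, the Ran exchange factor Rcc1, Ranbp1 and Nutf2. Nutf2 is the carrier that returns Ran to the nucleus. In the 36-cycle list 6 transport factors had a start-site peak (40%, 19.8 to 64.3%, length-matched 6.65%). In the 30-cycle list 3 had one (20%, 7.05 to 45.2%), and that interval covered the length-matched share of 12.4%. Xpo1 had a 643 bp peak from both lists 0.851 kb past its start and Cse1l a 322 bp peak from both lists 0.214 kb upstream. In-gene peaks were present in 3 transport factors (20%, length-matched 21.9%).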

How the data were processed

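WFS1 was mapped by ChIP-seq in proliferating C2C12 myoblasts crosslinked with DSG and formaldehyde. According to the study's methods and the submitters' processing notes, the authors mapped reads to GRCm38 (mm10) with NextGenMap, filtered them on mapping quality with SAMtools, and ran MACS2 on each library without pooling. The control used in peak calling is not given in the sources used here. The deposited files are peak lists with a chromosome, start and end for each peak. They hold no signal, score or read count, so no normalization was applied and no value is adjusted for depth.

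Both wildtype lists were joined where peaks overlapped or touched, which equalled the output of bedtools 2.31.1 for all 22292 combined peaks. Genes came from GENCODE mouse release 21, and the 5′ end of a gene was taken as its start site. A start-site peak overlapped the window of 1 kb to either side by at least 1 bp, an in-gene peak overlapped the gene but not that window, and a near peak had an edge within 50 kb of the start. Distances are those of a peak's nearest edge unless its centre is named. Length matching gives, for each gene, the share among protein-coding genes of the same length decile, averaged over the genes. Intervals are Wilson intervals (scipy 1.17.1). The 3 criteria were tested on simulated data with 1 peak placed at each of 200 genes, and all 200 were recovered. Sequences and repeat masking came from the RefSeq GRCm38 genome, read with pysam 0.24.0, and the sequences shown are the central 200 bp of the widest peaks called in both lists at a start site or in a member, passing over windows that touch an annotated UTR, except those said to be chosen after their values were seen.

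The 40 members and the lists of related genes were chosen with earlier results of these data known. All 40 were found in the annotation by symbol, and 2 of 47 related genes by an older symbol. No test was possible because each condition had 1 library. Alternatives tried were each list alone, peaks of both lists, peaks of at least the median width, other windows, other definitions of in-gene and near, other class membership and other matching.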

Additional observations from a re-analysis of the deposited data

How the results depend on the processing

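No paired analysis was possible because each sonication setting had 1 library and nothing was tested. The lists hold no score to set a stricter threshold with, and peaks of at least the median width stood in for it. Of 25 alternative values for the 3 counts of members, 20 were within 1.5 times the count reported. With peaks called in both lists only, the counts were 7 members at the start (17.5%, all protein-coding genes 3.33%, length-matched 3.6%), 8 in the gene (20%, all 9.18%, length-matched 11.4%) and 19 within 50 kb (47.5%, all 27.5%, length-matched 28.5%). In the gene, the 36-cycle list alone gave 9 members (22.5%, length-matched 15.1%) and the wider peaks gave 10 (25%, length-matched 14.6%). The 28 alternative values of the differences between lamina and membrane genes and pore genes ran from 0 to 33.3 percentage points. All lay within the counting interval of the reported differences, which were 11.3 (start), 35.6 (gene) and 7.27 (50 kb) points. The start-site difference was 0.752 points with a 2 kb window, 1.75 with a 0.5 kb window and 0 with Pom121, Ndc1 and Nup210 among the membrane genes. It was 27.1 points (interval -1.43 to 50.1) with the wider peaks, 12.3 with the 30-cycle list and 2.26 with the 36-cycle list. The in-gene difference was 17.5 points (interval -9.56 to 41.2) with the wider peaks, 19.3 (-10.6 to 45) with all peaks overlapping the gene and 26.1 (-4.03 to 50.2) with at least 50% of the peak in the gene. The 12 alternative ratios, which changed only the protein-coding genes compared with, ran from 1.24 to 2.84. Of these, only the lowest had an interval (0.999 to 1.4) that reached below 1. It was for peaks within 50 kb with length and CpG class matched. With other peak sets or windows, ratios to length-matched genes ran from 1.19 (within 100 kb) to 4.87 (start site, both lists). In the gene, the lower bound of the members' share fell below the length-matched share in some settings. These were 12.3% against 15.1% (36-cycle list), 10.5% against 11.4% (both lists) and 14.2% against 14.6% (wider peaks). Alternatives added after seeing the data were RefSeq start sites (15 members with a start-site peak, as reported), Tor1aip1 and Tor1aip2 counted once, and the in-gene difference without Lmna, Syne1, Syne3 and Tmpo (26.6 points, -4.81 to 52.1).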

Other observations

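The gene annotation bears on which members count. With every annotated transcript start in place of the 5′ end of the gene, 19 of 40 members had a start-site peak (47.5%) rather than 15, against 16.4% of all and 19.2% of length-matched protein-coding genes counted the same way. The additional members were Syne1 (inner starts at 357 and 409 kb), Lemd2 (2.79 kb), Nup62 (2.35 kb) and Nup85 (18.6 kb). The peak of Nup160 at 1.76 kb was counted in neither way, since no annotated transcript start lay within 1 kb of it. The promoter CpG ratio at the annotated 5′ end of Nup160 was 0.304, the lowest of the 40 genes, while the peak itself had a GC content of 64.4%. At Syne1 the ratio at the 5′ end was 0.385.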
